A study of Mus musculus with 12 samples.

Results

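The genes described here are 10 components of transforming growth factor beta (TGF-beta) and bone morphogenetic protein (BMP) signalling, taken by symbol from the 55359 gene identifiers of the deposited matrix. They are the ligand genes Tgfb1, Tgfb2, Tgfb3 and Bmp4, the receptor genes Tgfbr1, Tgfbr2 and Tgfbr3, and the SMAD genes Smad3, Smad6 and Smad7. Each symbol had 1 row. RNA from ISOS-1 was read by 3′-end sequencing. ISOS-1 is a cultured mouse angiosarcoma line, labelled as endothelial cells of WT genotype. The 12 libraries formed 4 groups of 3 replicates. SAHA (vorinostat), a hydroxamate inhibitor of histone deacetylases (HDACs), was given at 1 µM for 24 h. VPA (valproic acid), a branched fatty acid and a weaker inhibitor of class I HDACs, was given at 2 mM for 36 h. JQ1 was given at 1 µM for 36 h, and it competes with acetylated histones for the bromodomains of the BET proteins. The vehicle was DMSO, whose duration is not among the labels, so drug and exposure time cannot be told apart in comparisons with DMSO.

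TGF-beta is secreted in a latent complex, bound to its own propeptide and to a latent TGF-beta binding protein. Once released, it brings the type II receptor (Tgfbr2) and the type I receptor (Tgfbr1) together, and the type I receptor phosphorylates SMAD2 and SMAD3, which enter the nucleus with SMAD4. BMP ligands act through other type I receptors and SMAD1, SMAD5 and SMAD9. The inhibitory SMADs, SMAD6 and SMAD7, are induced by these signals and dampen them. Endothelial cells use a second TGF-beta superfamily type I receptor, ALK1 (Acvrl1), with the co-receptor endoglin (Eng), and respond to BMP with induction of ID genes.

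Values are the relative abundances (TPM) deposited by the authors, which scale reads by gene length and library total, given below in the order of replicates 1, 2 and 3. Dividing 3′ reads by gene length distorts levels between genes, so low or scarce below describes the listed TPM only. A change is a difference in log2(TPM + 1) from a limma fit of all 12 libraries. It was called where the p-value, adjusted over all 12836 genes past a filter of 1 TPM in 3 libraries, was under 0.05. The log2(TPM + 1) scale understates changes of low genes, and depth is unknown because TPM keeps none. Nothing in the labels ties the replicates to separate cultures, and p-values therefore cover only a between-library spread that may be technical. Between 13735 and 14799 genes were above 0 TPM in a library. Of 14 blood endothelial markers, 11 stayed under 1 TPM in all 12 libraries and 5 were listed at 0 throughout, among them Cdh5, the gene of VE-cadherin. On that list 2 passed the filter, Egfl7 and Flt1, which averaged 8.97 and 3.37 TPM with DMSO and were above 0 in every library. The 2 genes of the endothelial receptor arm were also scarce: Acvrl1 was listed at 0 in all 12 libraries and Eng never exceeded 0.37 TPM.

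Of the 10 genes, 9 passed the filter, and 2 of them, Tgfbr3 and Smad7, rose with JQ1. Neither SAHA nor VPA gave a call among them. With JQ1, 33.9% of all tested genes were called, 12.9% higher and 21.0% lower, while 2 of the 9 members were higher and none was lower. With SAHA, 5.19% of genes were called, 3.09% higher and 2.10% lower, so 0 calls among 9 genes (1 at an unadjusted p under 0.05) is near the background. With VPA the background was 4.27%, of which 2.95% higher and 1.32% lower, and the count was again 0 (1 at an unadjusted p under 0.05). The balance of VPA calls over all genes depended on scaling, with 379 higher and 169 lower genes as deposited but 270 and 293 after median-of-ratios scaling. After quantile normalization the VPA calls were 272 higher and 166 lower, near the balance as deposited. The JQ1 calls split into 1657 higher and 2690 lower as deposited. They were 2070 and 2290 after median-of-ratios scaling and 2068 and 2196 after quantile normalization. All 3 comparisons use the same DMSO libraries and are not independent of one another. The median change of the 9 genes was 0.22 with SAHA, 0.28 with VPA and 0.49 with JQ1, beside 0.01, 0.06 and −0.07 over all tested genes.

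**Figure D1:**
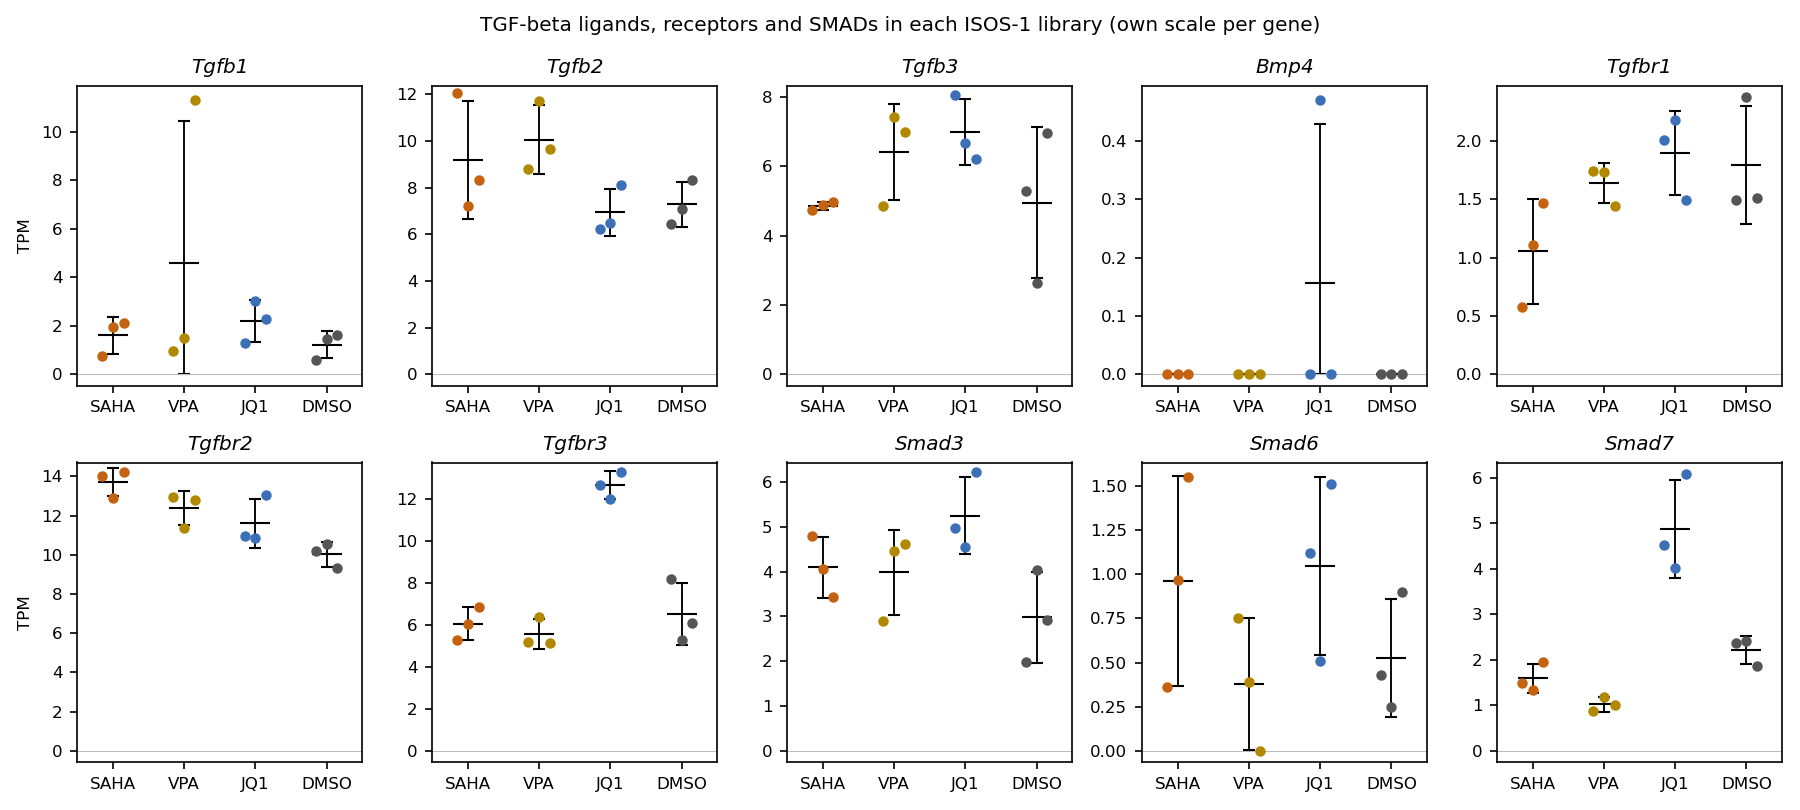
TPM of the 10 genes in each library (points, replicates 1 to 3 from left to right), with the group mean and SD (bars, n = 3, ended at 0 where the SD would pass it). Each gene has its own vertical scale from 0. The 3 JQ1 libraries stand above all others for Tgfbr3 (12.01 to 13.32 TPM) and Smad7 (4.02 to 6.08 TPM), and 1 VPA library stands apart for Tgfb1 (11.33 TPM).

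Among the receptors, Tgfbr3 encodes betaglycan, a co-receptor that presents TGF-beta2 to the signalling receptors and can be shed as a soluble trap. It had 12.69, 12.01 and 13.32 TPM in JQ1 libraries, against 8.18, 5.29 and 6.1 TPM in DMSO libraries. The groups did not overlap, and the lowest JQ1 library lay above the highest of the 9 others. Mean levels were 12.7 ± 0.655 TPM with JQ1 and 6.52 ± 1.49 TPM with DMSO (SD, n = 3 each), a 1.94-fold ratio. The log2 change was 0.88 (SE 0.179, limma adjusted p = 0.00285). Under the HDAC inhibitors Tgfbr3 had 5.31, 6.06 and 6.85 TPM with SAHA and 5.21, 6.4 and 5.13 TPM with VPA, all within or just below the DMSO range. The intervals of the change were −0.47 to 0.32 for SAHA and −0.57 to 0.21 for VPA. Levels therefore ran, from low to high, VPA, SAHA, DMSO and JQ1, where the libraries of the first 3 overlapped. JQ1 differed from each HDAC inhibitor directly, with a log2 change of −1.06 in VPA against JQ1 (limma adjusted p = 0.000837) and −0.96 in SAHA against JQ1 (limma adjusted p = 0.00168). These comparisons called 2 of the 9 members each, both lower. For VPA against JQ1, both given for 36 h, 33.2% of all genes were called (10.3% lower, 22.9% higher), and for SAHA against JQ1 33.3% (11.9% lower, 21.3% higher). Libraries of SAHA lay entirely below those of JQ1 for 4 members (Tgfbr1, Tgfbr3, Tgfb3 and Smad7) and entirely above for none, where 17.8% of all genes were below and 26.8% above.

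Tgfbr2, the type II receptor that binds the ligand first, had 14.04, 12.91 and 14.24 TPM in SAHA, 12.96, 11.37 and 12.77 TPM in VPA and 10.95, 10.83 and 13.05 TPM in JQ1 libraries, against 10.21, 10.56 and 9.31 TPM in DMSO libraries. All 9 drug-treated libraries lay above all 3 DMSO libraries, yet no comparison passed. Means were 13.7 ± 0.717 TPM with SAHA, 12.4 ± 0.868 with VPA, 11.6 ± 1.25 with JQ1 and 10.0 ± 0.645 with DMSO. The log2 changes were 0.42 for SAHA (interval 0.13 to 0.70, limma adjusted p = 0.0977), 0.28 for VPA (limma adjusted p = 0.287) and 0.19 for JQ1 (limma adjusted p = 0.295). All 3 libraries of a drug lay above all 3 of DMSO for 12.9% of tested genes with SAHA, 15.1% with VPA and 19.0% with JQ1. Separation by a single drug is therefore common here. The share of genes with all 9 drug-treated libraries above DMSO was not counted. The means had the order SAHA, VPA, JQ1 and DMSO from high to low, in which the libraries of SAHA, VPA and JQ1 all overlapped with one another.

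Tgfbr1, the type I receptor kinase ALK5, was low in every group. Its libraries had 0.58, 1.11 and 1.47 TPM with SAHA, 1.74, 1.73 and 1.44 TPM with VPA, 2.01, 2.18 and 1.49 TPM with JQ1 and 1.49, 2.38 and 1.51 TPM with DMSO. The SAHA libraries lay just below those of DMSO, as for 11.4% of all genes, with a log2 change of −0.45 (SE 0.247, limma adjusted p = 0.349). For VPA and JQ1 the changes were −0.07 and 0.06, and the groups overlapped with DMSO.

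The inhibitory SMAD gene Smad7, whose product blocks the type I receptor and recruits ubiquitin ligases to it, rose with JQ1. It had 4.52, 4.02 and 6.08 TPM in JQ1 libraries, against 2.37, 2.41 and 1.87 TPM in DMSO libraries. Means were 4.87 ± 1.07 TPM with JQ1 and 2.22 ± 0.301 TPM with DMSO (SD, n = 3 each), a 2.20-fold ratio, with a log2 change of 0.86 (SE 0.216, limma adjusted p = 0.00985). All JQ1 libraries were above all DMSO libraries, and the call held without each library in turn (limma adjusted p up to 0.0459). In VPA libraries Smad7 stood at 0.87, 1.19 and 1 TPM, below every DMSO library, a 0.460-fold ratio that did not pass (log2 change −0.67, interval −1.15 to −0.19, limma adjusted p = 0.118). In SAHA libraries it stood at 1.49, 1.33 and 1.96 TPM, overlapping with DMSO (log2 change −0.31, limma adjusted p = 0.480). Of all genes, 8.44% had VPA libraries entirely below DMSO.

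Smad7 thus had the order VPA, SAHA, DMSO and JQ1 from low to high, the same order of means as Tgfbr3, and only the step to JQ1 passed between neighbours. VPA and SAHA differed by 0.36 in SAHA against VPA (interval −0.12 to 0.83, limma adjusted p = 0.578), although all SAHA libraries lay above all VPA libraries, as they did for 6.22% of genes. Dose and duration differed between these drugs. No member was called in SAHA against VPA (0 at an unadjusted p under 0.05), where 0.452% of all genes were called, 0.265% higher and 0.187% lower, and 10.3% had SAHA libraries entirely below VPA. VPA libraries averaged 1.02 ± 0.161 TPM, against 4.87 ± 1.07 TPM in JQ1 libraries (log2 change −1.53, limma adjusted p = 0.000246). SAHA libraries averaged 1.59 ± 0.327 TPM (log2 change −1.17 in SAHA against JQ1, limma adjusted p = 0.00153).

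Smad6, the inhibitory SMAD that acts mainly on BMP signalling, stayed low. It had 0.36, 0.97 and 1.55 TPM with SAHA, 0.75, 0.39 and 0 TPM with VPA, 1.12, 0.51 and 1.51 TPM with JQ1 and 0.43, 0.25 and 0.9 TPM with DMSO. Only 3 libraries reached 1 TPM, 1 of SAHA and 2 of JQ1, so Smad6 passed the filter through those groups. All groups overlapped, and the interval in JQ1 against DMSO was −0.34 to 1.17 (log2 change 0.41, limma adjusted p = 0.400).

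Smad3, which carries the TGF-beta signal to DNA, was the member nearest to the threshold. It had 4.98, 4.55 and 6.22 TPM in JQ1 libraries, against 1.99, 4.03 and 2.92 TPM in DMSO libraries. The JQ1 libraries were all higher, as were those of 19.0% of all tested genes and of 4 of the 9 members (Tgfbr2, Tgfbr3, Smad3 and Smad7). No member had JQ1 libraries all below DMSO, where 26.7% of tested genes did. The log2 change of Smad3 was 0.67 (SE 0.244, limma adjusted p = 0.0532). It passed after median-of-ratios scaling (limma adjusted p = 0.0296) and quantile normalization (limma adjusted p = 0.0426), without an intensity trend (limma adjusted p = 0.0387) and without VPA replicate 1 (limma adjusted p = 0.0459). Leaving out single libraries moved it between limma adjusted p = 0.0287 without DMSO replicate 2 and 0.181 without DMSO replicate 1. With SAHA it had 4.8, 4.05 and 3.43 TPM and with VPA 2.9, 4.45 and 4.61 TPM, both overlapping with DMSO.

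The promoter table of RefSeq (GRCm38.p6) held a window for 7 of the 10 members, from 250 bases before to 50 bases after a start site. Tgfb3, Tgfbr3 and Smad7 are not among those read here. The windows were searched on both strands for GTCTAGAC, the palindromic SMAD-binding element, for CAGAC, a shorter sequence that SMAD3 and SMAD4 bind, and for GGCGCC, a GC-rich motif bound by SMADs of the BMP branch. None of these motifs contains another. Printed below are the windows of Smad6 (the sole match of the palindrome among the members), Tgfbr2 and Smad3 (described above), and of Id3, a BMP target gene described further on. Capitals mark motif matches.
Smad6, chr9:64022010-64022309 (- strand): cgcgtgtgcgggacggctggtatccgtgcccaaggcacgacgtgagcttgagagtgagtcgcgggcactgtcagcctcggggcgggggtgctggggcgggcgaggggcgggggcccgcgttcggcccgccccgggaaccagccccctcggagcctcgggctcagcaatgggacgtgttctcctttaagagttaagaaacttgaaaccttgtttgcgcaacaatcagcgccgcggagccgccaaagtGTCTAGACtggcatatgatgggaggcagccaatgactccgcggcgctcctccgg
Tgfbr2, chr9:116175314-116175613 (- strand): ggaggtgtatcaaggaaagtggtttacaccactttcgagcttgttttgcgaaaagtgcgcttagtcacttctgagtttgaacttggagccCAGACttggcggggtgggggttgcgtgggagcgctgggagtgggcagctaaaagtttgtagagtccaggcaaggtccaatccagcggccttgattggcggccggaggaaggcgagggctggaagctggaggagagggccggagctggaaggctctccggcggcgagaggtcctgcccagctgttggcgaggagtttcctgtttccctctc
Smad3, chr9:63757945-63758244 (- strand): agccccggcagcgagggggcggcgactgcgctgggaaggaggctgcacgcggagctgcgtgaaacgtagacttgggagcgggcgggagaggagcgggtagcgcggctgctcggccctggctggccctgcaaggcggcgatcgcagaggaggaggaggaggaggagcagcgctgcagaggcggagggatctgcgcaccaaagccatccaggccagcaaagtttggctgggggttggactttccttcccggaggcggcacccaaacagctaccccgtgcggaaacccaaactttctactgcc
Id3, chr4:136143572-136143871 (+ strand): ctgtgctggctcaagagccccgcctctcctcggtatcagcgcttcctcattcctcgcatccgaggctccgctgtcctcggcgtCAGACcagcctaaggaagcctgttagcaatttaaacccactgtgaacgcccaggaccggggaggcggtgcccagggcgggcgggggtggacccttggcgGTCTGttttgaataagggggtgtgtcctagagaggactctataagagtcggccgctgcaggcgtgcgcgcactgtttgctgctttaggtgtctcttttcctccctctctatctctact
The palindrome in the Smad6 window begins 4 bases before the start site and crosses it. It is rare, with 70 of 32851 windows in the table holding it (0.213%). CAGAC occurs in 49.6% of windows. It was found once in the Tgfbr2 window, at −160, and at 2 positions in the Id3 window, −167 and −68. The Tgfb2 window held it at −221 and −204, and 1 of the 2 Tgfbr1 windows at −203. The Smad3 window held none of the 3 motifs, which says only that these letters are not in it. GGCGCC occurs in 11.9% of windows and, among the members, in the other Tgfbr1 window, at −233. A match is a description of the sequence, not a binding site shown by these data.

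Of the ligands, Tgfb2 had 12.05, 7.23 and 8.32 TPM with SAHA, 8.81, 11.7 and 9.65 TPM with VPA, 6.23, 6.48 and 8.11 TPM with JQ1 and 6.43, 7.09 and 8.34 TPM with DMSO. The VPA libraries were all above DMSO, as were those of 15.1% of tested genes, but the change of 0.41 did not pass (interval −0.03 to 0.86, limma adjusted p = 0.312). VPA libraries also stood entirely above JQ1, as for 29.3% of genes (log2 change 0.48, limma adjusted p = 0.0955). Its SAHA and JQ1 libraries overlapped with DMSO, and the near-zero JQ1 change (−0.06) turned to 0.04 after median-of-ratios scaling and 0.02 after quantile normalization.

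Tgfb3 had 4.75, 4.87 and 4.98 TPM with SAHA, 4.84, 7.42 and 6.99 TPM with VPA, 8.04, 6.68 and 6.22 TPM with JQ1 and 5.28, 2.62 and 6.96 TPM with DMSO. The DMSO libraries spanned more than those of any drug, and every group overlapped with them. The largest of its changes, 0.49 with JQ1, had an interval of −0.11 to 1.09 (limma adjusted p = 0.194).

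Tgfb1, the broadly expressed isoform, was low here apart from 1 library. It had 0.98, 1.51 and 11.33 TPM with VPA, against 0.59, 1.45 and 1.63 TPM with DMSO. VPA replicate 3 alone carried the 3.77-fold ratio of means. The log2 change was 0.86 (interval −0.43 to 2.15, limma adjusted p = 0.490), and without that library it was 0.04. Its levels were 0.75, 1.95 and 2.14 TPM with SAHA and 1.29, 3.02 and 2.28 TPM with JQ1, and both groups overlapped with DMSO. In the GENCODE M21 annotation, which may differ from the one the authors counted with, no gene shares exon bases with Tgfb1. The cause of the high value in VPA replicate 3 was not tested.

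Bmp4, the BMP ligand of the group, was listed at 0 in 11 of 12 libraries and at 0.47 TPM in JQ1 replicate 2. It did not pass the filter and was not tested.

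**Figure D2:**
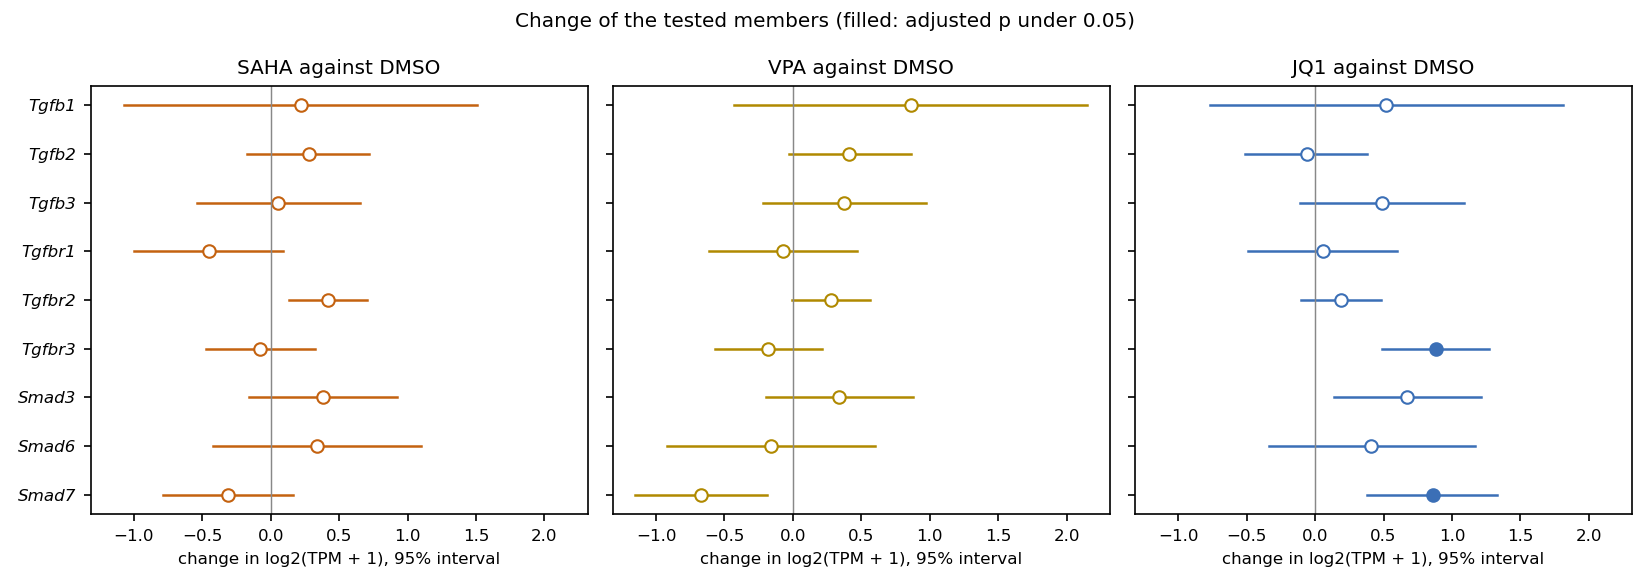
Change in log2(TPM + 1) against DMSO of the 9 tested members (circles) with 95% intervals (lines) for SAHA, VPA and JQ1, n = 3 libraries a group. Filled circles are called. Filled circles appear for Tgfbr3 (0.88) and Smad7 (0.86) with JQ1, and for no gene with SAHA or VPA.

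By the smallest root-mean-square difference of centred log2(TPM + 1) over the 12 libraries, among 7106 named genes with a mean of at least 5 TPM, those nearest to Tgfbr3 were Myh9 (0.138), which encodes a non-muscle myosin heavy chain, Rnd3 (0.142), a small GTPase gene, and Fnip1 (0.152), the gene of a folliculin-interacting protein. The median candidate differed from Tgfbr3 by 0.596. Myh9 averaged 58.5 TPM with JQ1 and 29.3 TPM with DMSO. Nearest to Smad7 were Myo1d (0.182), an unconventional myosin gene, Msh3 (0.214), a mismatch repair gene, and Hspa1b (0.219), a heat shock protein gene whose near-identical copy can share its reads. Myo1d averaged 21.1 TPM with JQ1 and 10.4 TPM with DMSO.

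The other genes of the pathway showed what stood around the 10 members. For the lists below, the share of all tested genes called was 5.19% with SAHA, 4.27% with VPA and 33.9% with JQ1. Of 5 other SMAD genes, 4 were tested and none was called with any drug over all genes (1 at an unadjusted p under 0.05 with VPA, 1 with JQ1 and 0 with SAHA). With JQ1, 1 was called lower without VPA replicate 1, without DMSO replicate 2 and with the filter at 5 TPM, and 1 higher with no filter. Smad4, the common partner, averaged 12.2, 10.9 and 12.4 TPM with SAHA, VPA and JQ1, and 11.5 TPM with DMSO. Smad1, of the BMP branch, averaged 18.3, 20.9 and 13.1 TPM with the same drugs and 16.4 TPM with DMSO. Smad2 had 5.55, 4.43 and 7.17 TPM in JQ1 libraries, against 19.41, 7.13 and 12.63 TPM in DMSO libraries, a spread in which the change of −0.99 did not pass (limma adjusted p = 0.0621).

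Other receptors of the superfamily gave 1 call in 7 tested of 13, Acvr2a with JQ1 (SAHA and VPA gave 0, with 2 and 1 at an unadjusted p under 0.05). This activin type II receptor gene had 3.1, 2.11 and 1.96 TPM in JQ1 libraries, against 0.89, 1.05 and 1.28 TPM in DMSO libraries (log2 change 0.70, limma adjusted p = 0.0363). Its groups did not overlap, but the call was lost in 8 of 20 alternative settings, including without any of 5 single libraries (JQ1 replicate 1 or 2, DMSO replicate 1, 2 or 3), with limma adjusted p up to 0.137. Acvr2a shares 446 exon bases with the opposite-strand gene Orc4 (10.19 to 22.17 TPM), and strand use in the authors' counting is not given in the sources used here. The BMP receptor gene Bmpr1a averaged 10.2, 8.92 and 9.21 TPM with SAHA, VPA and JQ1, and 9.52 TPM with DMSO.

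The list of other BMP, growth and differentiation factor (GDF) and activin ligands held 23 genes. Of these, 12 stood at 0 TPM throughout and 3 were tested. Gdf11, a ligand of activin receptors, rose with all 3 drugs. It had 5.78, 5.8 and 5.07 TPM in SAHA, 6.76, 6.58 and 5.62 TPM in VPA and 10.48, 13.12 and 9.07 TPM in JQ1 libraries, against 2.5, 2.9 and 2.63 TPM in DMSO libraries. No drug-treated library overlapped with DMSO. The log2 changes were 0.83 with SAHA (limma adjusted p = 0.0196), 0.99 with VPA (limma adjusted p = 0.00947) and 1.68 with JQ1 (limma adjusted p = 2.22e-05). The SAHA call was lost without SAHA replicate 1 or 2 or DMSO replicate 1 or 3, and in a fit of those 2 groups alone, with limma adjusted p up to 0.0694. The VPA call was lost in a fit of 2 groups alone (limma adjusted p = 0.0514). Inhba, which encodes the activin A subunit, fell with JQ1 to 15.31, 16.32 and 16.24 TPM, against 47.94, 38.74 and 39.69 TPM with DMSO (log2 change −1.34, limma adjusted p = 3.35e-06). With SAHA it had 46.27, 52.66 and 44.62 TPM and with VPA 51.68, 53.42 and 49.33 TPM.

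Of 16 genes for latency and activation of TGF-beta, 11 were tested. With JQ1, 4 rose and 1 fell, where 12.9% of all genes were called higher and 21.0% lower. No call was made with SAHA (0 at an unadjusted p under 0.05) or VPA (1), where 5.19% and 4.27% of all genes were called. The gene that fell was Ltbp1, a latent TGF-beta binding protein gene, at 9.68, 14.38 and 11.91 TPM with JQ1, against 63.94, 54.55 and 58.28 TPM with DMSO. This is a 0.203-fold ratio (log2 change −2.22, limma adjusted p = 4.20e-07). The related genes Ltbp2, Ltbp3 and Ltbp4 were not called with JQ1 (log2 changes 0.17, 0.60 and −0.25). Mmp14, a membrane matrix protease that can release latent TGF-beta, had 128.59, 132.93 and 125.53 TPM with JQ1, against 52.37, 51.59 and 47.97 TPM with DMSO (log2 change 1.33, limma adjusted p = 1.03e-06). Fbn1, the fibrillin of the microfibrils that hold the latent complex, averaged 5.49 ± 0.473 TPM with JQ1 and 2.74 ± 0.610 TPM with DMSO (limma adjusted p = 0.00806). Bmp1, a procollagen protease that also cleaves latent TGF-beta binding protein, averaged 7.27 ± 0.879 TPM with JQ1 and 3.98 ± 0.179 TPM with DMSO (limma adjusted p = 0.0156, and 0.0548 without JQ1 replicate 1). Itgb5, an integrin subunit gene, averaged 178 ± 3.29 TPM with JQ1 and 119 ± 7.07 TPM with DMSO (limma adjusted p = 0.0181, and 0.0580 without DMSO replicate 2). The list's median change with JQ1 was 0.25, beside −0.07 over all genes.

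All 20 SMAD cofactor and regulator genes were tested. With JQ1, 1 rose and 4 fell, with SAHA 1 rose, and with VPA none was called (2 at an unadjusted p under 0.05). Over all genes, 33.9% were called with JQ1 (12.9% higher, 21.0% lower), 5.19% with SAHA and 4.27% with VPA. The co-repressor gene Ski had 26.11, 24.69 and 23.7 TPM with JQ1, against 13.32, 13.98 and 15.42 TPM with DMSO (log2 change 0.76, limma adjusted p = 0.000404). Tgif1, another SMAD co-repressor, moved the other way, with 14.16, 15.42 and 8.68 TPM in JQ1 libraries against 31.31, 33.22 and 34.8 TPM in DMSO libraries (log2 change −1.35, limma adjusted p = 0.000224). Strap, a receptor-associated partner of SMAD7, averaged 42.3 ± 3.79 TPM with JQ1 and 84.1 ± 5.62 TPM with DMSO (limma adjusted p = 2.34e-05). Fkbp1a, the FK506-binding protein that holds the type I receptor inactive, averaged 196 ± 11.1 TPM with JQ1 and 337 ± 13.7 TPM with DMSO (limma adjusted p = 2.78e-06). With SAHA the gene called was Dab2, an adaptor protein gene, at 54.2 ± 7.01 TPM against 34.0 ± 4.41 TPM with DMSO (limma adjusted p = 0.0203), a call lost without SAHA replicate 1 or 3 or DMSO replicate 1 or 2, and in a fit of 2 groups alone (limma adjusted p up to 0.0768 over the alternatives).

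**Figure D3:**
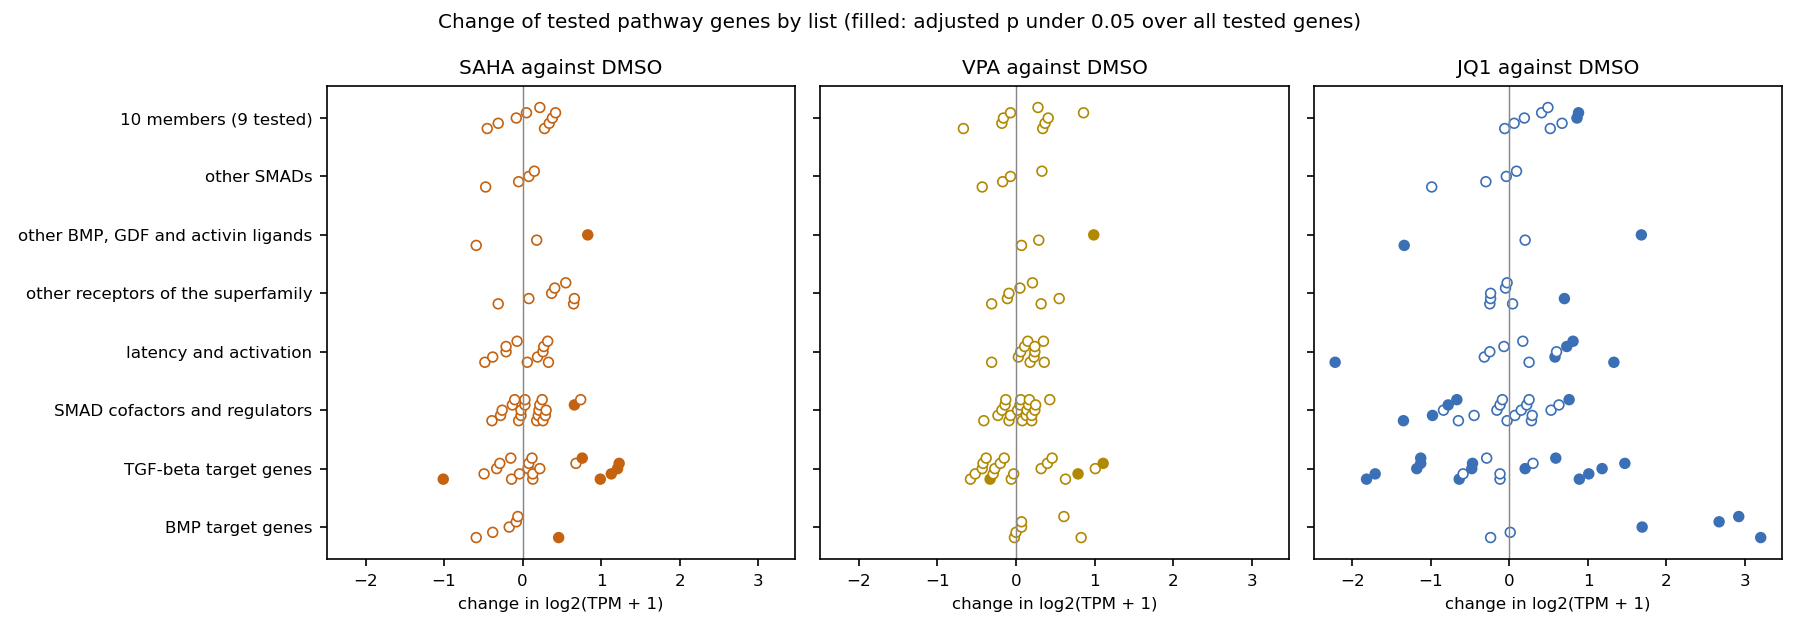
Change in log2(TPM + 1) against DMSO of each tested gene (circles) by list, for SAHA, VPA and JQ1. Filled circles are called, and points are spread vertically only for legibility. The BMP target genes have 4 filled circles with JQ1 (1.69 to 3.20) and the TGF-beta target genes have filled circles on both sides of 0 (6 higher and 8 lower).

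Transcripts that TGF-beta is known to induce in many cells did not move as one group. Of 20 such genes, 19 were tested: 5 rose and 1 fell with SAHA, 2 rose and 1 fell with VPA, and 6 rose and 8 fell with JQ1. Shares of all genes called were 5.19% with SAHA, 4.27% with VPA and 33.9% with JQ1. The list's median change was 0.12 with SAHA, −0.15 with VPA and −0.29 with JQ1, beside 0.01, 0.06 and −0.07 over all genes. Cdkn1a, the p21 gene, averaged 52.7 ± 6.30 TPM with SAHA, 51.8 ± 3.78 with VPA, 16.8 ± 3.25 with JQ1 and 23.5 ± 2.49 with DMSO. It rose with both HDAC inhibitors (limma adjusted p = 0.00146 and 0.00257), and its lower level with JQ1 passed (limma adjusted p = 0.0293) but not after median-of-ratios scaling, after quantile normalization, in a fit of 2 groups alone or without JQ1 replicate 1 or 2 or DMSO replicate 1, with limma adjusted p up to 0.106 over the alternatives.

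Ccn2, the connective tissue growth factor gene, rose with SAHA and with JQ1. It had 201.71, 219.29 and 212.15 TPM with SAHA and 267.21, 211.24 and 248.41 TPM with JQ1, against 92.54, 119.44 and 107.08 TPM with DMSO (limma adjusted p = 0.000411 and 5.82e-06). VPA libraries had 131.26, 133.78 and 131.25 TPM, all above DMSO, without passing (limma adjusted p = 0.117). Tagln, the gene of the actin-binding protein transgelin, fell with SAHA and JQ1. It averaged 9.25 ± 1.12 TPM with SAHA and 8.62 ± 2.52 with JQ1, against 19.5 ± 0.853 TPM with DMSO (limma adjusted p = 0.0135 and 0.000942). The SAHA call of Tagln was lost without SAHA replicate 3 or DMSO replicate 1 (limma adjusted p up to 0.0524), and with VPA it averaged 13.3 ± 1.18 TPM (limma adjusted p = 0.178). Acta2, smooth muscle actin, fell with JQ1 and averaged 22.3 ± 3.67 TPM with JQ1 and 51.7 ± 7.00 TPM with DMSO (limma adjusted p = 6.06e-05). It averaged 36.3 TPM with SAHA and 46.5 TPM with VPA, and neither passed (limma adjusted p = 0.0691 and 0.637).

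Timp1, a metalloproteinase inhibitor gene, had 22.18, 28.19 and 29.61 TPM with JQ1, against 89.67, 97.23 and 101.51 TPM with DMSO (log2 change −1.82, limma adjusted p = 7.26e-07). Postn, periostin, was listed at 0 in all 3 JQ1 libraries, against 2.62, 1.43 and 3.01 TPM in DMSO libraries (limma adjusted p = 0.000585), and had 5.13, 5.94 and 9.19 TPM with SAHA (limma adjusted p = 0.0305). The SAHA call of Postn was lost in 9 of 21 alternative settings, among them without SAHA replicate 2 or 3 or DMSO replicate 1 or 2 (limma adjusted p up to 0.104). Bhlhe40, a transcriptional repressor gene, had 18.07, 19.34 and 17.7 TPM with JQ1, against 12.82, 3.61 and 4.32 TPM with DMSO (log2 change 1.47, limma adjusted p = 0.00579). The DMSO libraries were uneven, but none reached the JQ1 range. Col1a2, a collagen gene, averaged 374 ± 10.6 TPM with VPA and 470 ± 19.6 TPM with DMSO (log2 change −0.33, limma adjusted p = 0.00318, and 0.0900 without an intensity trend).

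Of the pathway genes called with JQ1, 3 ID genes known as BMP targets had the largest changes in log2(TPM + 1). That ranking depends on the scale. By the ratio of mean TPM, Atoh8 (9.42) stood above Id1 (6.46) and Id3 (7.65). The log2 change of Postn, at 0 TPM with JQ1, was −1.71 but reached −4.55 over the alternative settings. Of 8 BMP target genes 6 were tested, and 4 rose with JQ1, 1 with SAHA and none with VPA (1 at an unadjusted p under 0.05). Over all genes, 12.9% rose with JQ1, 3.09% with SAHA and 2.95% with VPA. The list's median change with JQ1 was 2.18, beside −0.07 over all genes, but it rests on 6 genes. Atoh8 is among these only through its JQ1 and VPA libraries, and Msx1 and Msx2 changed by 0.01 and −0.24. The median therefore does not describe the list as a whole. Id1, an inhibitor of basic helix-loop-helix factors, had 448.3, 455.31 and 422.14 TPM with JQ1, against 71.14, 64.77 and 69.21 TPM with DMSO (log2 change 2.67, limma adjusted p = 3.19e-09). Id2 had 96.81, 100.58 and 119.1 TPM with JQ1, against 13.81, 8.07 and 10.54 TPM with DMSO (log2 change 3.20, limma adjusted p = 3.49e-07). Id3, whose promoter window is printed above, averaged 398 ± 17.0 TPM with JQ1 and 52.0 ± 7.93 TPM with DMSO (log2 change 2.92, limma adjusted p = 6.74e-08). Atoh8, another helix-loop-helix gene, had 6.62, 4.76 and 1.34 TPM with JQ1, against 0.45, 0.52 and 0.38 TPM with DMSO (limma adjusted p = 0.00637), and it passed the filter only through its JQ1 and VPA libraries. The homeobox genes Msx1 and Msx2 did not pass (limma adjusted p = 0.984 and 0.544). With SAHA, Id1 averaged 94.6 ± 12.7 TPM against 68.4 ± 3.27 TPM with DMSO (limma adjusted p = 0.0153), a call lost without DMSO replicate 2, without an intensity trend and in a fit of 2 groups alone (limma adjusted p up to 0.0826 over the alternatives).

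**Figure D4:**
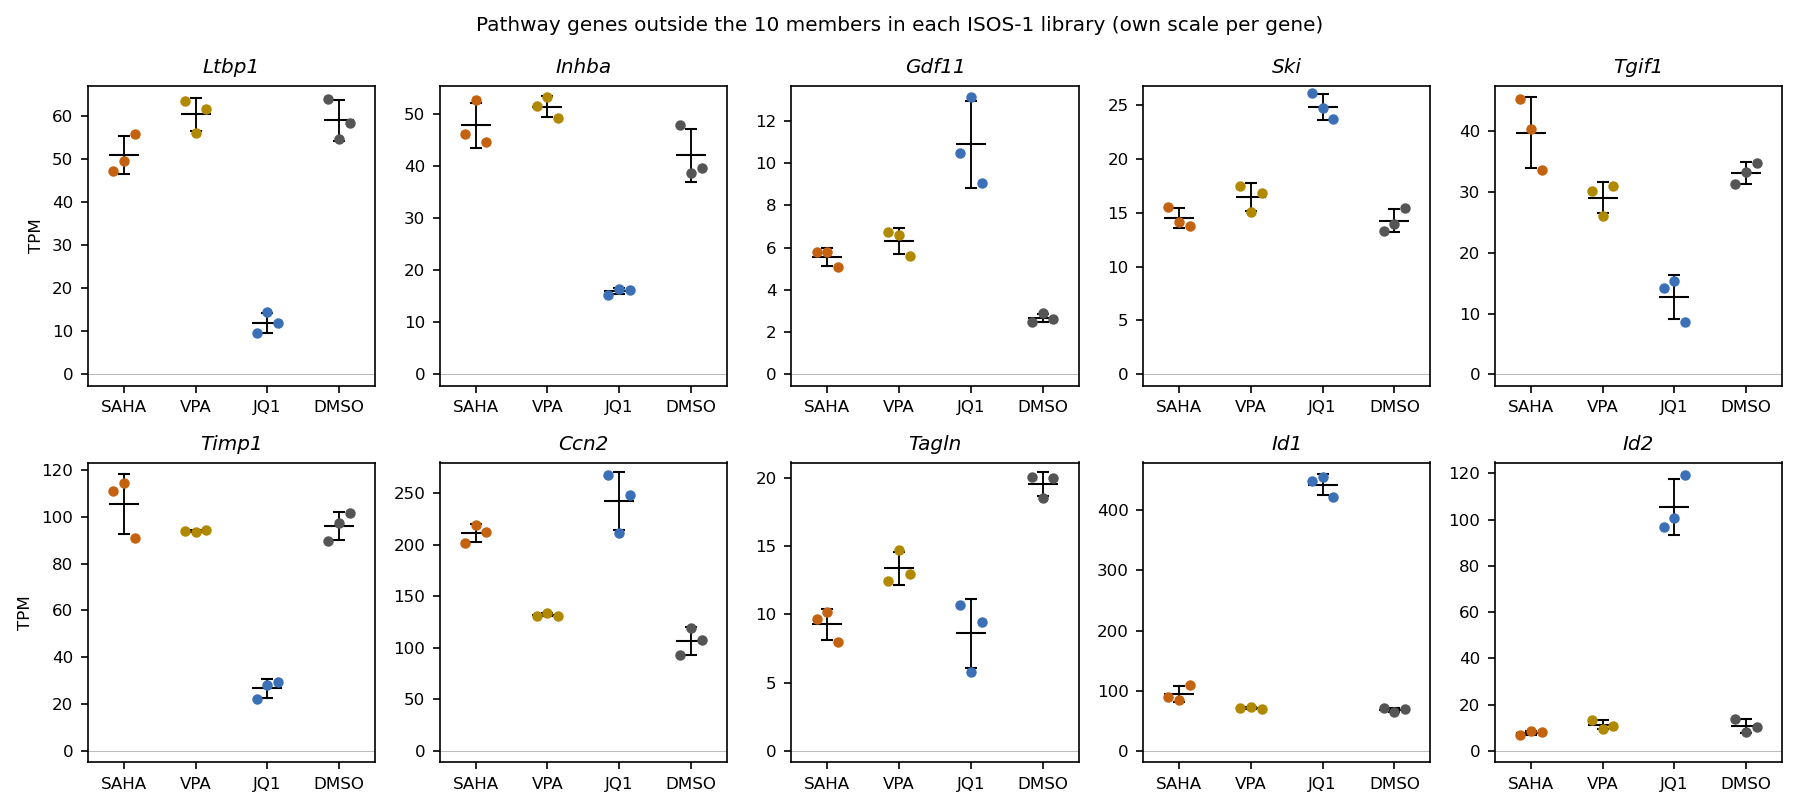
TPM of 10 pathway genes outside the members in each library (points, replicates 1 to 3 from left to right), with group mean and SD (bars, n = 3). Each gene has its own scale from 0. JQ1 libraries stand apart from the other 9 for Ltbp1, Inhba, Gdf11, Ski, Tgif1, Timp1, Id1 and Id2, and all 9 drug-treated libraries lie above DMSO for Gdf11.

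Markers of other cell types moved with some groups. The summed level of 8 fibroblast markers was 677 to 844 TPM with SAHA, 607.7 to 697.5 with VPA, 281.4 to 306.6 with JQ1 and 327.7 to 332.6 with DMSO. Thy1 alone averaged 567 TPM with SAHA, 493.9 with VPA, 151.8 with JQ1 and 154.5 with DMSO. Of the 7 markers tested, 4 rose with SAHA, 1 rose with VPA and 2 fell with JQ1, and Lum was at 0 in 11 of 12 libraries. Over all genes, 3.09% rose with SAHA, 2.95% rose with VPA and 21.0% fell with JQ1. Pdgfrb and Col1a1 averaged lower with SAHA and VPA than with DMSO, without a call. Among the 4 called with SAHA, Dcn passed the filter only through SAHA and VPA libraries. The 7 pericyte and smooth muscle markers, of which Acta2 is also a target gene above, summed to 34.37 to 39.43 TPM with SAHA, 42.76 to 51.1 with VPA, 19.39 to 26.46 with JQ1 and 47.56 to 60.09 with DMSO. In that list Rgs5 was at 0 throughout, and 6 of the 7 genes stayed under 1 TPM. Of 4 lymphatic markers 3 stayed under 1 TPM in all libraries, as did 5 of 6 epithelial markers. The lymphatic marker above that level, Pdpn, averaged 115 TPM with SAHA, 106 with VPA and 46.9 with JQ1, against 73.3 TPM with DMSO, and the epithelial one, Krt19, averaged 23.8, 31.0 and 34.2 TPM with the drugs in that order and 11.3 TPM with DMSO. Neither of the 2 tested leukocyte markers was called with any drug. The part of these markers in the changes of the target genes was not tested. A change in the share of cells with a marker and a change in its RNA per cell cannot be told apart in these bulk libraries of a cultured line.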

How the data were processed

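RNA of ISOS-1 cells was read from its 3′ ends (QuantSeq FWD kit, per the labels' protocols). The authors deposited TPM per gene, in columns named as gene-level RSEM output, per the file headers. STAR, RSEM, edgeR, bcl2fastq 2.17 and the mm39 build appear in the submitters' processing notes, with no roles given. Dividing 3′ reads by gene length distorts levels between genes, so tests compare each gene with itself, the summed marker levels weight genes unequally, and TPM keeps no depth. Exons were compared with GENCODE M21.

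The 12836 genes that reached 1 TPM in 3 or more libraries were fitted as log2(TPM + 1) in 4 group means over all 12 libraries (limma 3.58.1 in R 4.3.3, moderated with an intensity trend), with two-sided tests and Benjamini-Hochberg adjustment over all tested genes. The method was tested on simulated data. Figures used matplotlib 3.10.9. Members and lists were chosen with earlier results of these data known. For each list and drug, up to 4 called genes by size of change were named, except 1 target gene that is counted with its list but not reported here. Itgb5 with JQ1, Ccn2, and for JQ1 also Cdkn1a, Tagln and the uncalled genes given with values were added after their values were seen. Alternatives were 2 smaller pseudocounts (0.1 and 0.5), no filter, a filter at 5 TPM, median-of-ratios scaling, quantile normalization, no trend, fits of 2 groups, a replicate block and each library left out.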

Additional observations from a re-analysis of the deposited data

How the results depend on the processing

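Calls of Tgfbr3 and Smad7 in JQ1 against DMSO, VPA against JQ1 and SAHA against JQ1 held in every alternative that tested them. The filter at 5 TPM left Smad7 untested and so gave 1 called member in each of these comparisons. Without 1 library, called members ranged from 2 to 3 in JQ1 against DMSO (Smad3 was added), and were 2 in VPA against JQ1 and in SAHA against JQ1, and 0 elsewhere. Over all genes, calls without an intensity trend numbered 402 in SAHA against DMSO, 341 in VPA against DMSO and 14 in SAHA against VPA, and in fits of 2 groups 407, 296 and 20, against 666, 548 and 58 as reported. Calls in SAHA against VPA were 94 after median-of-ratios scaling. Leaving out 1 library gave 365 to 644 calls in SAHA against DMSO, 295 to 515 in VPA against DMSO and 14 to 64 in SAHA against VPA. Each library of the 2 groups compared lowered these counts by over 1.5 times, to at most 402, 315 and 38.

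The replicate numbers gave no clear pairing of the libraries. Deviations of the 18 same-number pairs correlated at −0.0449 to 0.0789, beside −0.067 to 0.0558 for the 36 other pairs. Of 12 libraries, 6 correlated best with their own number. This check cannot show that the libraries were unpaired. With the replicate block the members called were 2 in JQ1 against DMSO, and calls over all genes were 24 in SAHA against VPA.

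The sign changes below are of values that passed no test. In JQ1 against DMSO, Tgfb2 was 0.04 and 0.02 after median-of-ratios scaling and quantile normalization, and −0.17 to 0.03 without single libraries, and Tgfbr1 was −0.02 to 0.20. In VPA against JQ1, Tgfbr2 was −0.09 and −0.07 under the 2 scalings, Tgfb1 −0.48 to 0.84 and Tgfb3 −0.22 to 0.05 without single libraries. In SAHA against DMSO these ranges were −0.00 to 0.49 for Tgfb1, −0.27 to 0.30 for Tgfb3 and −0.20 to 0.08 for Tgfbr3. In VPA against DMSO they were −0.15 to 0.07 for Tgfbr1 and −0.35 to 0.05 for Smad6. In SAHA against VPA they were −1.14 to 0.18 for Tgfb1, −0.33 to 0.01 for Tgfb2 and −0.13 to 0.14 for Smad3, and in SAHA against JQ1 −0.28 to 0.16 for Smad6. The causes were not tested.

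Of the members, Tgfb1, Tgfbr1, Smad6 and Smad7 lie at a few TPM or less, where the unknown depth limits precision.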
